A study of Mus musculus with 2 samples.

Results

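Thy1 is 1 of the 32285 genes counted in each of 2 libraries of nuclei from mouse hippocampus. It was chosen by name, through its symbol in the deposited gene list, because the transgenes of the 5XFAD mouse carry Thy1 sequences. Its levels were followed over rebuilt cell classes, libraries and mice, and were set against the level in glia. The gene (ENSMUSG00000032011) lies on chromosome 9 of mm10, from 44043384 to 44048579 on the plus strand in the GENCODE M21 annotation. Its 4 exons give a transcript of 1735 bases with a coding length of 486 bases. The 3' UTR of 1131 bases lies in exon 4, and no other gene of the list overlaps Thy1.

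Thy1, also called CD90, encodes a small glycoprotein of the immunoglobulin superfamily that a glycosylphosphatidylinositol (GPI) anchor holds on the outer face of the plasma membrane. In the mouse brain it is known as a protein of mature neurons, where it restrains neurite outgrowth and binds integrins on astrocytes. Cassettes built from mouse Thy1 are a standard means of driving a transgene in forebrain neurons, and in 5XFAD mice they drive the mutant human transgenes, APP among them, that lead to amyloid plaques. Counts near the 3' end of Thy1 can hold RNA of the native gene and of these cassettes, and the 2 sources cannot be told apart here.

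The first library came from 8-month-old 5XFAD mice labelled as MR1 knockouts (below, the MR1 KO library), and the other from 8-month-old 5XFAD mice (the 5XFAD library). Both groups thus carried the 5XFAD transgenes, and no mouse without them was measured. MR1 is an antigen-presenting molecule seen by mucosal-associated invariant T cells, and the study's title sets it beside dystrophic neurites, the swollen axons found at plaques. Each library combined tissue of a female and a male, 2 mice in 1 droplet capture of flash-frozen tissue, so nuclei are not replicates. No test between the groups was possible, and every 95% interval covers counting error alone.

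After filtering, 17235 of 26212 barcodes were kept in the MR1 KO library and 12109 of 25238 in the 5XFAD library, with medians of 2530 and 3755 unique molecular identifiers (UMIs, counted RNA molecules) per nucleus. The files shared 182 barcode sequences. The mitochondrial limit alone removed 8.92% of the MR1 KO barcodes and 35.9% of the 5XFAD barcodes. Nuclei led by medium spiny neuron genes, which mark striatum and not hippocampus, were 10 of the MR1 KO nuclei and 1153 (9.52%) of the 5XFAD nuclei; they enter the values over all kept nuclei and none of the other classes. Mr1 itself had 66 UMIs in the MR1 KO library and 34 in the 5XFAD library (1.16 and 0.594 CPM, which scales UMIs to the same total in each library or class). The ratio, MR1 KO over 5XFAD, was 1.96 (1.28 to 3.06) in CPM and 1.36 (0.889 to 2.13) per nucleus. Mr1 RNA was thus not lower in the library labelled as the knockout. Whether the counted 3' end was deleted in the allele is not known here, so every direction given here belongs to the library with that label. Class names stand for nuclei like that type by their leading marker genes, and clusters without enough markers kept a number. Among these, clusters 3, 16 and 17 were uneven, with 1837, 34 and 50 nuclei in the MR1 KO library and 74, 650 and 601 in the 5XFAD library.

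Thy1 was counted in large amounts in both libraries, with high levels per nucleus in nuclei like subicular and CA1 pyramidal neurons. The kept nuclei held 43677 Thy1 UMIs in the MR1 KO library and 29339 in the 5XFAD library, 2.53 UMIs per nucleus (2.51 to 2.56) and 2.42 (2.40 to 2.45). Nuclei like subicular neurons, led by Fn1 and Tshz2, had the highest mean per nucleus of the 20 classes that had 50 or more nuclei per library. In CPM this did not hold in the MR1 KO library, where they stood at 1085.5 (991 to 1187), beside 1147 in CA1 pyramidal and 1134 in dentate granule neurons. Subicular neurons held 4.94 Thy1 UMIs per nucleus (4.51 to 5.40, 98 nuclei) in the MR1 KO library and 7.99 (7.51 to 8.49, 130 nuclei) in the 5XFAD library. CA1 pyramidal neurons, the main output cells of the hippocampus, had 4.04 (3.94 to 4.15, 1534 nuclei) and 4.08 (3.97 to 4.19, 1296 nuclei). The CA1 intervals of the libraries overlapped and the subicular ones did not, while in CPM the subicular ratio, MR1 KO over 5XFAD, was 0.925 (0.829 to 1.03).

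Cluster 5, led by Dcn and Pde11a and unnamed with 3 CA1 markers, was close to these with 4.69 Thy1 UMIs per nucleus in the MR1 KO library and 4.59 in the 5XFAD library. Granule neurons of the dentate gyrus, which receive the entorhinal input, had 2.53 (2.48 to 2.58) and 2.03 (1.96 to 2.11). Pyramidal neurons of CA2/CA3 had 2.03 (1.96 to 2.10) and 2.71 (2.62 to 2.81). The dentate and CA2/CA3 means thus stood in opposite order in the 2 libraries. Within CA2/CA3, cluster 24, led by Fyb2, Stard5 and the CA2 marker Amigo2, held 1.36 (1.18 to 1.57, 143 nuclei) and 1.66 (1.43 to 1.92, 110 nuclei). Cluster 2, led by Nectin3 and Grik4, held 2.09 and 2.82. Cluster 24 thus lay below cluster 2 in both libraries, with the deeper nuclei: medians of 5049 UMIs against 4212 in the MR1 KO library, and of 7551 against 6227 in the 5XFAD library.

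Inhibitory neurons were lower than CA1 pyramidal neurons. Lamp5 interneurons had 2.40 Thy1 UMIs per nucleus (2.22 to 2.58) in the MR1 KO library and 1.93 (1.71 to 2.16) in the 5XFAD library. Sst or Pvalb interneurons had 2.06 (1.97 to 2.16) and 1.78 (1.67 to 1.89), and Vip or Adarb2 interneurons had 1.52 (1.41 to 1.63) and 1.81 (1.65 to 1.98). Medium spiny neurons, with 1.42 (1.35 to 1.49) in the 5XFAD library, were at the level of its glia, and the 10 such nuclei of the MR1 KO library held 5 Thy1 UMIs. In the order of the 20 classes, 14 of 19 neighbouring pairs in the MR1 KO library and 15 of 19 in the 5XFAD library did not differ beyond counting error. In the MR1 KO library the steps beyond it were from cluster 14 to CA1 pyramidal neurons, from there to cluster 3 and on to dentate granule neurons, from Lamp5 to Sst or Pvalb interneurons (1.16-fold, 1.06 to 1.27) and from Vip or Adarb2 interneurons to microglia (1.14-fold, 1.04 to 1.25). In the 5XFAD library they were from subicular neurons to cluster 5 (1.74-fold, 1.62 to 1.86), from there to CA1 and on to CA2/CA3 pyramidal neurons, and from deep-layer cortical neurons to cluster 14 (1.16-fold, 1.02 to 1.32).

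**Figure D1:**
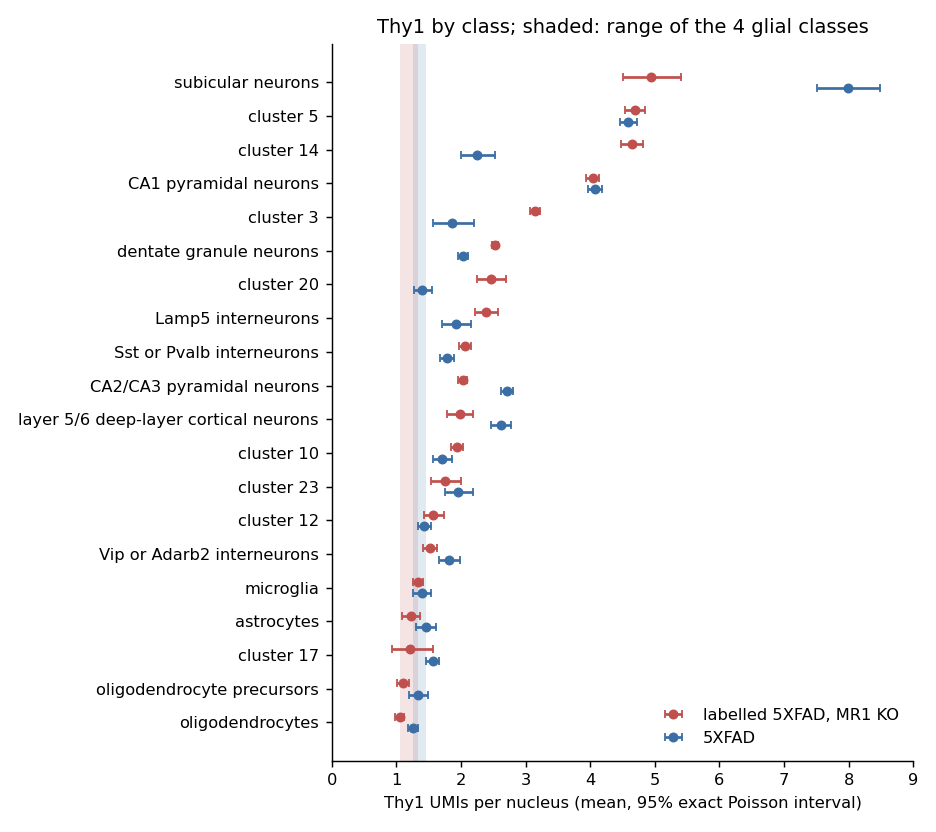
Mean Thy1 UMIs per nucleus in the 20 classes of 50 or more nuclei per library, with exact Poisson 95% intervals; MR1 KO points lie above 5XFAD points, and the bands give the range of the 4 glial classes in each library. Subicular neurons, cluster 5 and CA1 pyramidal neurons lie far to the right of the bands in both libraries, while clusters 3, 14 and 20 lie further right in the MR1 KO library.

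Glia, which are not known for Thy1, gave the level against which neurons were read. Astrocytes, oligodendrocytes, oligodendrocyte precursors and microglia held between 1.05 and 1.34 Thy1 UMIs per nucleus in the MR1 KO library and between 1.26 and 1.46 in the 5XFAD library. Pooled, they held 1.18 (1.13 to 1.22, 2502 nuclei) and 1.33 (1.27 to 1.39, 1574 nuclei). Within the MR1 KO library microglia (1.34, 1.26 to 1.42) lay above oligodendrocytes (1.05, 0.987 to 1.12), and in the 5XFAD library all 4 intervals overlapped. Barcodes with fewer than 500 genes detected, which were not kept, held 0.966 (0.921 to 1.01) and 1.15 (1.10 to 1.2). These shallow barcodes thus held nearly as much Thy1 as a glial nucleus.

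Thy1 was also set against other neuronal RNA. Against the summed UMIs of 16 genes used by most neurons (Snap25, Syt1, Meg3 and others), Thy1 stood at 0.0954 to 0.106 in the 4 glial classes of the MR1 KO library and at 0.0870 to 0.114 in those of the 5XFAD library. The barcodes under the gene minimum gave 0.0955 and 0.110. Cluster 12, a shallow unnamed cluster led by AY036118, Gm42418 and Cmss1 with medians of 661 and 682 UMIs, gave 0.105 and 0.102. In CA1 pyramidal neurons the ratio was 0.0784 and 0.0561, in subicular neurons 0.0586 and 0.0690, and in inhibitory classes 0.0271 and 0.0201. The 4 glial classes, the shallow barcodes and cluster 12 thus lay within the same range in each library, and these neurons lay below it. Other non-neuronal nuclei, in classes of 28 to 98 nuclei, did not all share it: vascular leptomeningeal cells gave 0.0813 and 0.0600, endothelial and mural cells 0.0737 and 0.0920, and choroid plexus cells 0.0811 in the MR1 KO library. Barcodes like glia above the mitochondrial limit gave 0.130 and 0.108. Dentate granule neurons were at 0.0929 in the MR1 KO library, near its glia, and at 0.0533 in the 5XFAD library. Their shallow cluster 4 had 0.121 and 0.0949. The make-up of the 16 summed genes also differed between nuclei. In the MR1 KO library Meg3 gave 21.1 of 49.0 summed UMIs per nucleus over all kept nuclei, and 1.60 of 11.7 in glia. In the 5XFAD library Meg3 gave 31.75 of 68.8 and 1.63 of 12.6. The part of this in the ratios was not tested.

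Over this level, Thy1 per nucleus was 3.44-fold higher in CA1 pyramidal neurons (3.29 to 3.60) in the MR1 KO library and 3.07-fold (2.92 to 3.23) in the 5XFAD library. The subicular neurons stood 4.20-fold (3.81 to 4.63) and 6.01-fold (5.57 to 6.48) over glia. Dentate granule neurons stood 2.15-fold (2.07 to 2.24) and 1.53-fold (1.45 to 1.62) over glia, and inhibitory classes 1.67-fold (1.58 to 1.75) and 1.36-fold (1.28 to 1.45). Taken over the named excitatory classes, the value was 2.33-fold (2.24 to 2.42) and 2.28-fold (2.18 to 2.39). On the CPM scale the same comparison gave 0.970 (0.933 to 1.01) and 0.739 (0.706 to 0.774). Glial nuclei were shallow: they averaged 1332 UMIs in the MR1 KO library and 1773 in the 5XFAD library, while excitatory nuclei averaged 3199 and 5466. The direction between neurons and glia turned with the scale in the 5XFAD library, and in the MR1 KO library the CPM interval included 1.

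The share of nuclei with a Thy1 UMI depended on depth in the same way. It was 94.6% (93.3 to 95.7) in MR1 KO and 94.3% (92.9 to 95.5) in 5XFAD CA1 pyramidal neurons, with medians of 2943 and 4406 UMIs. In glia it was 66.0% (64.1 to 67.8) and 72.2% (69.9 to 74.4), with medians of 1032 and 1428 UMIs. After each nucleus was thinned to 750 UMIs, the glial share was 50.5% (48.4 to 52.7) and 49.3% (46.7 to 51.8). CA1 pyramidal neurons were then at 58.1% (55.6 to 60.6) and 46.3% (43.6 to 49.1), and dentate granule neurons at 59.0% (57.5 to 60.5) and 35.5% (33.1 to 38.0). Inhibitory classes gave 33.5% (31.2 to 35.8) and 28.2% (25.4 to 31.1). Subicular neurons were at 59.8% (49.3 to 69.6) and 60.0% (51.0 to 68.5). At equal numbers of UMIs, the interval thus lay above the glial share for CA1 and dentate neurons in the MR1 KO library and for subicular neurons in the 5XFAD library. It lay below the glial share for CA1 and dentate neurons in the 5XFAD library and for inhibitory classes in both libraries. The 5XFAD subicular and CA1 intervals still overlapped the interval of glia. Thinning left out 390 and 72 glial nuclei, and 0 and 1 CA1 nuclei.

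The spread of Thy1 from nucleus to nucleus differed among classes. Counts in oligodendrocytes spread like random draws around 1 mean, with a variance over mean of 1.06 in the MR1 KO library and 0.935 in the 5XFAD library. In CA1 pyramidal neurons this ratio was 2.13 and 2.23, and in subicular neurons it was 4.86 and 5.68. It was also above 2 in CA2/CA3 pyramidal neurons, at 2.45 and 2.48, and in deep-layer cortical neurons, at 2.63 and 3.04. Microglia, at 1.43 and 1.54, astrocytes, at 1.69 and 1.24, and dentate granule neurons, at 1.54 and 1.42, lay between oligodendrocytes and CA1. Subicular nuclei reached 38 and 46 Thy1 UMIs, and 11 of 98 (11.2%) and 34 of 130 (26.2%) held 10 or more. In CA1 this held for 4.63% and 5.86% of the nuclei, in dentate granule neurons for 0.563% and 0.273%, and the highest count in an oligodendrocyte nucleus was 6 and 7. Differences in depth among nuclei add to this ratio, and its part was not tested.

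**Figure D2:**
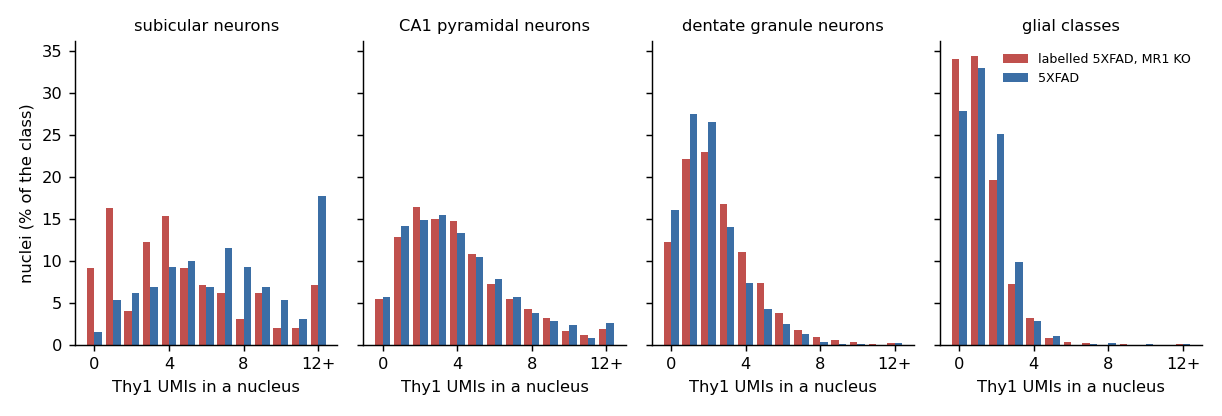
Percent of nuclei (vertical) with each number of Thy1 UMIs (horizontal, with 12 or more in the last bar) in 4 groups of nuclei, MR1 KO bars left of 5XFAD bars. Glia pile up at 0 to 2 UMIs, and the subicular neurons of the 5XFAD library have 1.54% of nuclei at 0 and a long upper tail.

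Nuclei of like depth were compared next. Among nuclei with 2000 to 4000 UMIs, CA1 pyramidal neurons held 3.73 Thy1 UMIs (3.59 to 3.87) in the MR1 KO library and 3.23 (3.07 to 3.41) in the 5XFAD library. Dentate granule neurons held 2.89 (2.81 to 2.97) and 1.85 (1.75 to 1.96), and CA2/CA3 pyramidal neurons 1.76 (1.66 to 1.87) and 2.22 (2.04 to 2.41). Inhibitory classes held 1.68 (1.59 to 1.78) and 1.54 (1.41 to 1.67), against 1.70 (1.52 to 1.89, 201 nuclei) and 1.32 (1.19 to 1.46, 287 nuclei) in glia. At this depth the inhibitory and CA2/CA3 intervals overlapped that of glia in the MR1 KO library. In the 5XFAD library CA2/CA3 lay above glia and the inhibitory interval still overlapped it, while CA1 lay above glia in both libraries. At 4000 to 8000 UMIs, MR1 KO glia held 2.90 (2.50 to 3.36, 62 nuclei), above inhibitory classes (2.22, 2.09 to 2.35) and CA2/CA3 (1.99, 1.89 to 2.10). In the 5XFAD library glia then held 2.15 (1.77 to 2.58, 53 nuclei), and both intervals overlapped it. MR1 KO glia of 500 to 1000 UMIs held 1.03, so the folds over pooled glia compare nuclei of unlike depth. Thy1 did not rise in step with depth: CA1 nuclei of 1000 to 2000 UMIs averaged 3.03 and 2.70, and those of 8000 UMIs or more 6.19 and 6.20, so that CPM in CA1 ran from 1865 down to 602 in the MR1 KO library and from 1618 down to 597 in the 5XFAD library.

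**Figure D3:**
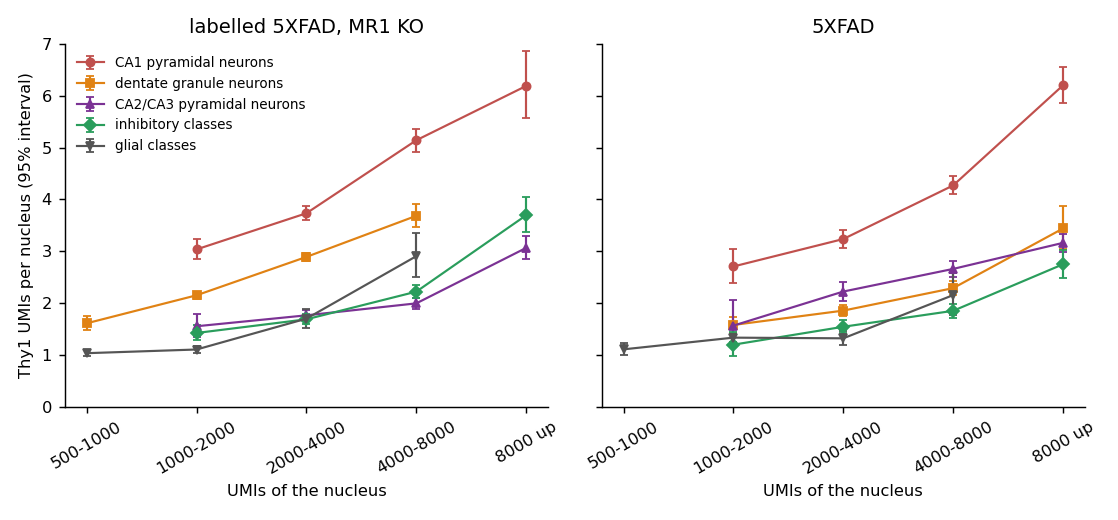
Mean Thy1 UMIs per nucleus (vertical, with exact Poisson 95% intervals) by total UMIs of the nucleus (horizontal), for 5 groups of nuclei in the MR1 KO library (left) and the 5XFAD library (right); points have at least 20 nuclei. CA1 pyramidal neurons are highest of the 5 groups from 1000 UMIs upward, and dentate granule neurons lie between CA1 and glia in the MR1 KO library.

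Between the libraries, Thy1 was higher in the MR1 KO library in CPM and nearly level per nucleus. Over all kept nuclei it stood at 770 CPM (763 to 777) in the MR1 KO library and 513 CPM (507 to 518) in the 5XFAD library, a ratio of 1.5 (1.48 to 1.52). That ratio is just past a fold of 1.5, which 7.11% of the 16876 genes with at least 100 UMIs reached in this direction and 2.58% in the other. On the log2 scale it was 0.59, and the median of all genes was 0.12. Without the medium spiny neurons the ratio was 1.46 (1.43 to 1.48), below the fold, with 770 and 529 CPM, and the ratio per nucleus was then 1.00 (0.988 to 1.02). With all kept nuclei the ratio per nucleus was 1.05 (1.03 to 1.06), while all UMIs per nucleus stood at a ratio of 0.696. Per nucleus 1.36% of the genes were higher by 1.5-fold and 20.5% lower, with a log2 median of -0.40 and 0.06 for Thy1. The Thy1 ratio was thus above the median gene on both scales, with a count per nucleus that moved little.

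The 12 classes of 200 or more nuclei per library showed how the ratio was made up. Its 95% interval lay above 1 in 10 of 12 classes in CPM and in 3 of 12 per nucleus (dentate granule neurons, Sst or Pvalb interneurons and cluster 10). Per nucleus it lay wholly below 1 in CA2/CA3 pyramidal neurons and in Vip or Adarb2 interneurons (0.837, 0.745 to 0.940). The same held for astrocytes (0.843, 0.722 to 0.984), oligodendrocyte precursors (0.824, 0.717 to 0.948) and oligodendrocytes (0.833, 0.762 to 0.910). With TMM scaling the interval lay above 1 in 8 of 12 classes, and it included 1 in CA2/CA3 pyramidal neurons (1.02, 0.970 to 1.07) and in Vip or Adarb2 interneurons (1.08, 0.966 to 1.22). With every class given equal weight the ratio was 1.29 (1.25 to 1.33) in CPM and 0.962 per nucleus. In CA1 pyramidal neurons it was 1.44 (1.39 to 1.49) in CPM, with 1147 CPM in the MR1 KO library and 799 CPM in the 5XFAD library, and 0.992 (0.956 to 1.03) per nucleus. In CA2/CA3 it was 1.09 (1.04 to 1.14) in CPM and 0.747 (0.711 to 0.784) per nucleus. In cluster 10 it was 1.51 (1.36 to 1.67) in CPM, a fold of 1.5 that 8.1% of the genes of this cluster reached. By sex-linked RNA, 721 of its 861 MR1 KO nuclei were female and 29 male, while 173 of its 288 5XFAD nuclei were male. Its females could not be compared. Between the males its ratio was 0.768 (0.545 to 1.06) in CPM and 0.814 (0.578 to 1.12) per nucleus. Among nuclei of known sex, cluster 10 thus set mainly the MR1 KO female against the 5XFAD male. The part of this in its ratios was not tested. In CA1 3.65% of all genes measured, and in CA2/CA3 3.05%, were higher by 1.5-fold in CPM, a fold that Thy1 did not reach in either.

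Dentate granule neurons had the largest ratio of the 12 classes. Thy1 stood at 1134 CPM (1113 to 1156) in MR1 KO nuclei and 515 CPM (497 to 534) in 5XFAD nuclei, a ratio of 2.20 (2.11 to 2.29) that passed 1.5-fold, as did 11.7% of the genes of this class. Per nucleus it was 1.25 (1.2 to 1.30), with all UMIs per nucleus at a ratio of 0.566. The class was made up differently in the 2 libraries: clusters 4 and 8 held 1721 and 1200 of its 4266 MR1 KO nuclei, but 122 and 39 of its 1465 5XFAD nuclei. In cluster 1, which held 1345 and 1304 nuclei, the ratio was 1.67 (1.58 to 1.76) in CPM and 1.10 (1.04 to 1.16) per nucleus. Cluster 8, led by Glis3 and C1ql2, held 3.31 Thy1 UMIs per nucleus (3.2 to 3.41) and 3.0 (2.48 to 3.60), and cluster 4 held 2.20 (2.13 to 2.27) and 1.5 (1.29 to 1.73). The ratio within each of the 3 clusters was thus below that of the whole class in CPM.

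In glia, Thy1 per nucleus was lower in the MR1 KO library, at a ratio of 0.884 (0.835 to 0.935), and higher in CPM, at 1.18 (1.11 to 1.24). The neuronal ratios stand beside this change of the glial level, whose part in them was not tested. The glial mean is also that of shallow nuclei, and deeper glia held more Thy1, as given above. With the glial mean of each library subtracted, CA1 pyramidal neurons held 2.87 and 2.75 Thy1 UMIs above glia, a ratio of 1.04, and dentate granule neurons held 1.35 and 0.702, a ratio of 1.93. For CA2/CA3 the values were 0.852 and 1.38, a ratio of 0.616, and for subicular neurons 3.76 and 6.66, a ratio of 0.566. Outside the 12 classes, cluster 14, led by Tshz2 and Npsr1, held 4.64 (4.47 to 4.82, 600 nuclei) in the MR1 KO library and 2.26 (2.01 to 2.53, 133 nuclei) in the 5XFAD library. Cluster 20, led by Foxp2 and Pbx3, held 2.47 (2.26 to 2.70, 198 nuclei) and 1.40 (1.27 to 1.55, 275 nuclei), and only the first was above the glial range of its library. Cluster 3, led by Smoc1 and Otof, held 3.15 (3.07 to 3.23, 1837 nuclei) and 1.87 (1.57 to 2.20, 74 nuclei). By sex-linked RNA, cluster 14 of the MR1 KO library had 516 female nuclei (4.95 Thy1 UMIs each) and 26 male nuclei (1.92). In cluster 20, 169 MR1 KO nuclei were female and 149 5XFAD nuclei were male. These clusters differed in nuclei and mice between the libraries, and the part of that in their values was not tested.

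**Figure D4:**
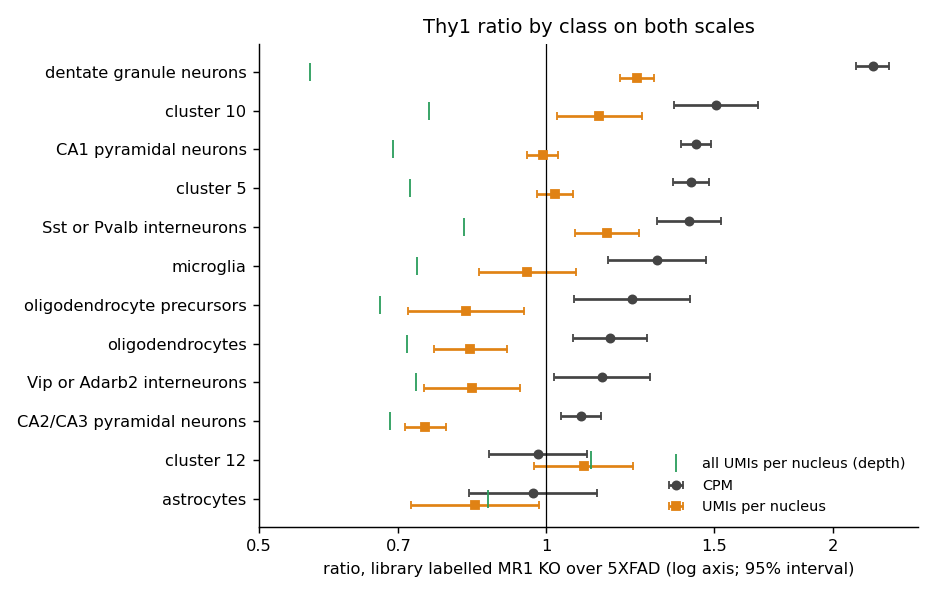
Ratio of Thy1, MR1 KO library over 5XFAD library (horizontal, log axis, with exact conditional 95% intervals), in CPM (circles) and in UMIs per nucleus (squares) for the 12 classes of 200 or more nuclei per library; bars mark the ratio of all UMIs per nucleus. Dentate granule neurons have the highest value on both scales, and CA1 pyramidal neurons lie at 1.44 in CPM and 0.992 per nucleus.

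The pooled mice were told apart by sex-linked RNA, which assigned 8992 female and 3075 male nuclei in the MR1 KO library and 5330 and 3435 in the 5XFAD library. The other 5168 and 3344 nuclei were assigned to neither mouse. Assigned nuclei were deeper: female and male nuclei averaged 3637 and 3834 UMIs in the MR1 KO library, beside 3292 over all its kept nuclei. In the 5XFAD library they averaged 5156 and 5613, beside 4727. The part of this selection in the values of each mouse was not tested. CA1 pyramidal neurons held 4.61 Thy1 UMIs per nucleus (4.41 to 4.81) in the MR1 KO female and 4.02 (3.85 to 4.19) in the MR1 KO male, against 4.12 (3.98 to 4.27) in the 5XFAD female and 4.29 (4.08 to 4.52) in the 5XFAD male. The 2 mice of the MR1 KO library thus differed by more than counting error, and the 5XFAD mice lay between them. Dentate granule neurons held 2.97 (2.90 to 3.04) in the MR1 KO female and 2.22 (2.12 to 2.32) in the MR1 KO male, against 2.04 (1.96 to 2.12) in the 5XFAD female and 2.24 (1.99 to 2.52) in the 5XFAD male. The MR1 KO female alone stood apart. In cluster 1 alone it held 2.61 (2.42 to 2.81) and the MR1 KO male 2.31 (2.18 to 2.44), against 2.05 (1.96 to 2.13) in the 5XFAD female and 2.35 (2.07 to 2.65) in the 5XFAD male, whose interval overlapped those of both MR1 KO mice. Cluster 1 made up 268 of the 2168 dentate nuclei of the MR1 KO female and 515 of the 812 of the MR1 KO male. In the 5XFAD female and male it made up 1084 of 1195 and 113 of 128. The part of this make-up in the dentate means was not tested.

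The other neurons varied in further ways among the mice. Per nucleus, CA2/CA3 pyramidal neurons were lower in both MR1 KO mice. The MR1 KO female held 2.05 (1.94 to 2.16) and its male partner 2.14 (2.03 to 2.26). The 5XFAD mice held 2.88 (2.77 to 3.0, female) and 2.38 (2.17 to 2.60, male), and the intervals of the males overlapped. In CPM the order of the males turned, with a CA2/CA3 ratio, MR1 KO over 5XFAD, of 1.44 (1.29 to 1.60). For females the CPM ratio was 0.965 (0.901 to 1.03). CA2/CA3 nuclei averaged 5377 UMIs for the MR1 KO male and 8577 for the 5XFAD male. Subicular neurons held 3.08 Thy1 UMIs per nucleus (2.44 to 3.83, 26 nuclei) in the MR1 KO female and 6.0 (5.31 to 6.75, 46 nuclei) in the MR1 KO male, against 8.18 (7.66 to 8.72, 114 nuclei) in the 5XFAD female. The 5XFAD male had fewer than 20 such nuclei. In the MR1 KO female the subicular mean thus lay below its CA1 mean of 4.61. Glia held 1.32 and 1.14 in the MR1 KO female and male, and 1.41 and 1.28 in the 5XFAD female and male. In CPM over all kept nuclei, the ratio was 1.45 (1.42 to 1.48) between the females and 1.61 (1.56 to 1.66) between the males. The MR1 KO female over the 5XFAD male gave 1.81 (1.76 to 1.85) and the MR1 KO male over the 5XFAD female 1.29 (1.26 to 1.33), so all 4 pairs of mice lay above 1 on that scale. Per nucleus the females gave 1.02 (0.999 to 1.04) and the males 1.10 (1.07 to 1.14).

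**Figure D5:**
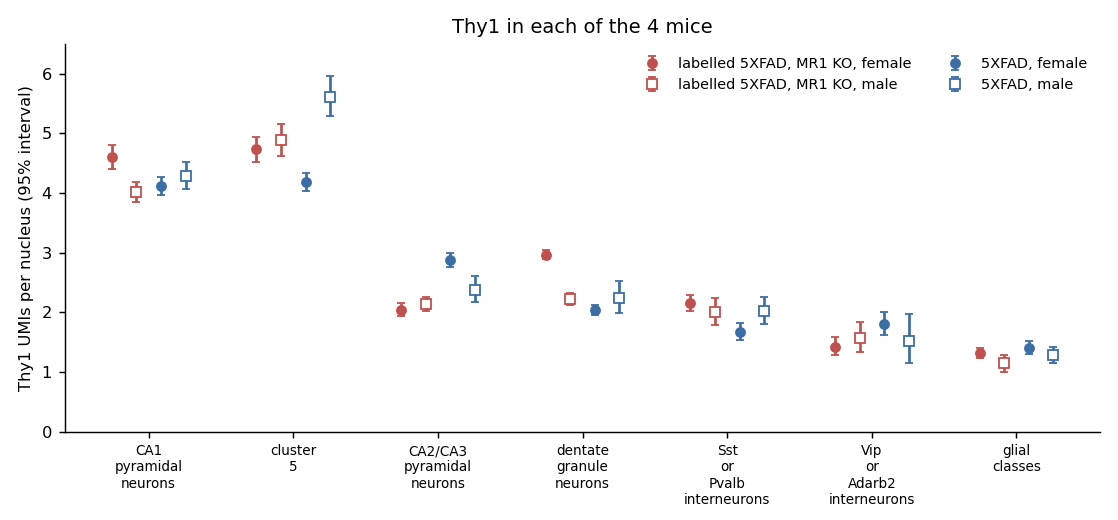
Mean Thy1 UMIs per nucleus (vertical, with exact Poisson 95% intervals) in 6 neuronal classes and in glia, for the female (filled circles) and male (open squares) of the MR1 KO library and then of the 5XFAD library. In dentate granule neurons the MR1 KO female stands at 2.97, above the other mice. In CA2/CA3 both MR1 KO mice lie below both 5XFAD mice on this scale, which did not hold for the males in CPM.

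The genes annotated beside Thy1 on chromosome 9 had few UMIs. Gm39323, a lincRNA 2325 bases before Thy1 on the other strand, had 32 UMIs in the MR1 KO library and 23 in the 5XFAD library, and E230034D01Rik had 6 and 10. After Thy1, Gm49380 had 254 and 274 UMIs (0.0147 and 0.0226 per nucleus), and the antisense gene Gm39325 had at most 1 in a library. The CPM ratio of Gm49380 was 0.935 (0.785 to 1.11), and its interval lay wholly below that of Thy1. The strand setting of the counting is not given in the sources used here, but with no overlapping gene in the list no neighbour shared reads with Thy1 by position.

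Genes were ranked by how like Thy1 their level was across classes. The measure was Pearson's r between log2(CPM + 1) values over 40 points, 20 classes in each of 2 libraries, among 10229 genes with at least 1000 UMIs. The points share library, depth and free RNA, so r is a description. Among the genes most like Thy1 were Nrgn, Sprn, Enc1, Tspan13, Fdft1, Wsb2 and Zbtb18, with r between 0.759 and 0.829. Nrgn encodes neurogranin, a calmodulin-binding protein of dendritic spines, Sprn a GPI-anchored relative of the prion protein, Fdft1 squalene synthase of the cholesterol pathway, and Zbtb18 a repressor of transcription in cortical neurons. Of these 7, Tspan13, a tetraspanin, was also among the 8 most like Thy1 on UMIs per nucleus, at rank 1 with r = 0.884. Of the 8 genes most like Thy1, 2 were also among the 8 in the MR1 KO library alone and 4 in the 5XFAD library alone, so the ranking depends on the library. Tspan13 held 0.906 and 1.07 UMIs per nucleus in CA1 and 0.980 and 1.30 in subicular neurons, against 0.416 and 0.553 over all kept nuclei. Nrgn had r = 0.740 without cluster 12, where it had rank 2.

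App, which encodes the amyloid precursor protein and whose human form is a 5XFAD transgene, had an r of 0.610 and rank 563. Without cluster 12 its r was 0.399. Human and mouse RNA of this gene cannot be told apart in these counts. App per nucleus was 3.11 in MR1 KO and 5.71 in 5XFAD subicular neurons, and 3.0 and 4.07 in CA1 pyramidal neurons, against 1.15 and 1.81 in glia. Subicular neurons were thus above glia in App per nucleus; in CPM they stood at 684 and 839, against 1436 and 1544 CPM in oligodendrocytes. Over all kept nuclei App had a CPM ratio of 1.12 (782 CPM in the MR1 KO library and 700 CPM in the 5XFAD library), which did not reach 1.5-fold.

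Thy1 was next set beside other surface genes of the same kind. Of 36 GPI-anchored or immunoglobulin-family neuronal surface genes, 3 were higher by 1.5-fold in CPM over all kept nuclei while 2 were lower, beside 7.11% and 2.58% of all genes; the median of their log2 ratios was 0.07, beside 0.12 for all genes. Per nucleus 1 of the 36 was higher and 13 were lower, beside 1.36% and 20.5% of all genes. Lypd1, a Ly6-family inhibitor of nicotinic receptors, was highest at 2.41 (83.5 CPM in the MR1 KO library and 34.6 CPM in the 5XFAD library), and Rtn4r, the Nogo receptor, followed at 1.53. Lypd1 was among the leading genes of cluster 14, which held 600 MR1 KO and 133 5XFAD nuclei. The part of uneven class shares in the ratios of this list was not tested. Ntm, an IgLON adhesion protein, stood at 0.646 and Gfra2, the neurturin receptor, at 0.591. The most abundant members lay on both sides: Lsamp at 1.14, Negr1 at 1.04, Opcml at 0.849, Cntn5 at 0.798 and Mdga2 at 0.697. The prion protein gene Prnp, another GPI-anchored neuronal protein, had 1.30.

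Of 20 genes for binding partners of Thy1 and the signalling below them, 4 were higher by 1.5-fold in CPM and 1 was lower, beside the same 7.11% and 2.58% of all genes, and the median of their log2 ratios was 0.18. Per nucleus 0 of the 20 were higher and 4 were lower, beside 1.36% and 20.5% of all genes. Those past the fold were Cav1, Itgam, Itgb5 and Itgax on the higher side and Itga5 on the lower side. Itgam and Itgax, integrin chains of microglia, rest on few counts: Itgam had 293 UMIs in the MR1 KO library and 164 in the 5XFAD library, and Itgax had 91 and 57. Microglia were 844 of the MR1 KO nuclei and 272 of the 5XFAD nuclei, and the part of this in the ratios was not tested. The kinase genes Fyn (1.10), Lyn (0.923) and Ptk2 (0.927), the integrin chain gene Itgb1 (1.01), Rhoa (1.22) and Arhgap5 (1.06) stayed within the fold. Among the 16 genes of the neuronal panel, 2 passed it on the higher side, Olfm1 at 1.69 and Uchl1 at 1.60, and none on the lower side. Of all genes, 7.11% and 2.58% did so, and the median log2 ratio of the panel was 0.22. Per nucleus 0 of the 16 were higher and 2 were lower, beside 1.36% and 20.5% of all genes. The ratio of Thy1 in CPM was thus above the medians of these 3 lists and of all genes.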

How the data were processed

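Nuclei of flash-frozen hippocampus were profiled with droplet 3' chemistry, 1 library per group, per the labels' protocols. The authors deposited raw counts (UMIs for each gene in each called barcode); Cell Ranger 7.0.0 is named per the file headers, and mm10 and Seurat per the submitters' processing notes. Settings for introns and strand were not given in the sources used here. Of the 32285 gene IDs, 32158 matched GENCODE M21, which gave coordinates. No Thy1 promoter or protein entry was matched in the sequence tables.

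Nuclei were kept from 500 detected genes upward and below 5% mitochondrial UMIs (22263 MR1 KO and 15408 5XFAD barcodes). Scrublet (scanpy 1.11.5) scored doublets per library, with a threshold that marks 0.8% per 1000 barcodes, which marked 21.0% of the MR1 KO and 20.0% of the 5XFAD barcodes. Clusters in which 15% or more of the nuclei carried Xist together with a Y-linked UMI (362 and 216 nuclei) were left out as mixed. Clustering used 2500 variable genes without Thy1, Xist, Tsix, Y-linked and mitochondrial genes, 40 principal components, 20 neighbours and Leiden (leidenalg 0.10.2) at a resolution of 1.5. It gave 34 clusters: 3 were mixed, 21 took 18 names and 10 stayed unnamed. A name needed at least 3 of its markers among the top 50 genes and 1 among the top 10, and more there than any other class, or a tie with a lead of 3 among the top 50; this rule, its tie clause (which names CA1), the joining of close classes (such as Sst with Pvalb) and the 15% limit were set after the clusters were seen. No deposited cell annotation was used here, so classes can differ from the study's. Nuclei with 2 or more Xist UMIs and without Y-linked UMIs were taken as female, and those with a Y-linked UMI and without Xist as male.

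UMIs were summed per class and library. CPM and UMIs per nucleus carry exact Poisson, shares Clopper-Pearson and ratios exact conditional binomial 95% intervals (scipy 1.17.1). Lists counted folds of 1.5 among genes with at least 100 UMIs. Thy1, App, the nearest annotated genes, the 8 most like genes, and of each list its 6 largest and the 2 highest and 2 lowest members were open to naming; other members were named after their values were seen, and 1 gene open to naming is not reported here. The interval code was tested on simulated counts. The gene, lists and markers were chosen with earlier results of these data known. Alternatives were other limits on genes and mitochondrial UMIs, doublets kept, UMIs per nucleus, thinning, single mice, TMM (edgeR 4.0.16) and a resolution of 1.0.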

Additional observations from a re-analysis of the deposited data

Results flagged for a closer look

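Of the 12 classes of 200 or more nuclei per library, 10 could be compared in both sexes, and in 5 of them the Thy1 UMIs per nucleus stood on opposite sides of 1 between the females and between the males (MR1 KO over 5XFAD). The difference between the sexes was not tested, each value rests on 1 mouse per group, and a sex is a single animal here. In dentate granule neurons the ratio was 1.46 (1.39 to 1.53) in females and 0.989 (0.873 to 1.12) in males. In CA1 pyramidal neurons it was 1.12 (1.06 to 1.18) in females and 0.936 (0.875 to 1.00) in males, and in cluster 5 it was 1.13 (1.07 to 1.2) and 0.870 (0.80 to 0.945). Sst or Pvalb interneurons gave 1.29 (1.16 to 1.43) in females and 0.993 (0.848 to 1.16) in males. Vip or Adarb2 interneurons ran the other way, with 0.790 (0.678 to 0.922) in females and 1.04 (0.760 to 1.44) in males. In cluster 5 both intervals left out 1. The opposite sides held per nucleus only, as in CPM all 5 classes had ratios above 1 in both sexes. In CPM dentate granule neurons gave 2.58 in females and 1.70 in males, and CA1 pyramidal neurons 1.55 and 1.29. Cluster 5 gave 1.56 and 1.24, and Sst or Pvalb interneurons 1.54 and 1.17. Vip or Adarb2 interneurons gave 1.03 (0.887 to 1.205) and 1.625. How many other genes showed such opposite sides per nucleus was not counted.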

How the results depend on the processing

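The CPM ratio of Thy1 over all kept nuclei (MR1 KO over 5XFAD, 1.5) stayed above 1 in every setting tried, and the other summaries did not. With UMIs per nucleus that ratio was 1.05, 3 of 12 classes lay above 1, the ratio with equal class weights was 0.962, and excitatory neurons over glia became 2.33 (MR1 KO) and 2.28 (5XFAD). The class ratio then fell below 1 in CA1 (0.992), CA2/CA3 (0.747), Vip or Adarb2 interneurons (0.837), microglia (0.956), oligodendrocyte precursors (0.824) and oligodendrocytes (0.833). Thinning gave 1.48 over all nuclei, 5 of 12 classes, 1.24 with equal weights, 1.13 for MR1 KO neurons over glia and 0.999 in oligodendrocytes. TMM scaling gave 1.37 over all nuclei and 1.23 with equal weights, and left 8 of 12 classes above 1. With at least 1000 genes detected, neurons over glia were 1.28 and 0.963. With mitochondrial UMIs under 1% the ratio was 1.55, equal weights gave 1.57, and neurons over glia 1.01 and 1.34. With no mitochondrial limit it was 1.29, with 0.923 and 0.665 over glia. With marked doublets kept, equal weights gave 1.37 and neurons over glia 1.04 and 0.906. Females alone gave 1.45 over all nuclei, 1.33 with equal weights, 1.10 and 0.799 over glia, and 0.965 in CA2/CA3. Males alone gave 1.61 and 1.25, with 0.768 in cluster 10 and 0.90 in oligodendrocyte precursors. The MR1 KO female over the 5XFAD male gave 1.81 and 1.52. The MR1 KO male over the 5XFAD female gave 1.29 and 1.15, with 5 of 10 classes and 0.698 in oligodendrocyte precursors. Settings added after seeing the data were nuclei of 2000 to 4000 UMIs (1.33 over all nuclei, 6 of 10 classes, 1.16 with equal weights, 1.58 and 1.59 over glia, 0.832 in CA2/CA3 and 0.938 in Vip or Adarb2 interneurons), the glial mean subtracted (0.616 in CA2/CA3) and no medium spiny neurons (1.46). The causes were not tested. No paired analysis was possible because each group has 1 library, so the groups share fewer than 2 replicate numbers; the pooled mice were compared as given above. The subicular values are limited by their few nuclei (98 and 130) and by unlike depth in the libraries (medians of 3901.5 and 6127 UMIs). The glial level limits what can be read in inhibitory neurons.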

Other observations

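Barcodes outside the filters also held Thy1. Those with 20% or more mitochondrial UMIs had 4.25 Thy1 UMIs each (3.94 to 4.59, 158 barcodes) in the MR1 KO library and 4.74 (4.64 to 4.85, 1636 barcodes) in the 5XFAD library, while those with 2 to 5% had 2.37 and 2.16. Barcodes marked as doublets had 3.41 (3.36 to 3.47) and 3.16 (3.10 to 3.23). Barcodes at or over the 5% mitochondrial limit whose nearest kept nuclei were CA1 pyramidal neurons had 7.02 (6.28 to 7.83, 46 barcodes) and 4.73 (4.5 to 4.96, 350 barcodes), and those nearest to glia had 2.07 (1.98 to 2.16) and 2.19 (2.13 to 2.25).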
